A study of Homo sapiens with 18 samples.

Results

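NODAL, GDF3, TDGF1, FOXH1, LEFTY1, LEFTY2 and CER1, 7 genes of the NODAL signalling pathway, were followed across stem cells entering neural ectoderm. They were taken by symbol from the study's expression table, which held all 7 among its 37550 rows. The study measured poly-A RNA in 18 libraries of H1, an established human pluripotent stem cell line, and asked how anterior and posterior neural ectoderm form and how each responds to regional media. There were 9 groups of 2 libraries, which the series' design text calls biological replicates. The hPSC group was undifferentiated cells at day 0, washed free of their growth medium mTeSR Plus. All other groups shared a first day in 1 µM A8301, 250 nM trametinib, 1 µM C59 and 100 nM LDN193189. A8301 inhibits the type I receptors that NODAL, activin and TGF-beta use, trametinib inhibits MEK, C59 blocks WNT secretion, and LDN193189 inhibits BMP receptors. On the second day, anterior neural ectoderm (aNE) received A8301, LDN193189 and C59, with thiazovivin, a ROCK inhibitor. Posterior neural ectoderm (pNE) received A8301 and LDN193189 with 50 nM of the retinoic acid receptor agonist TTNPB, 20 ng/mL FGF2, 1 µM of the tankyrase inhibitor XAV939, and thiazovivin. A8301 was therefore present on both days in both origins. Cells of either origin were also carried to day 4 in forebrain medium (aNE_T, pNE_T), midbrain medium (aNE_M, pNE_M) or hindbrain medium (aNE_H, pNE_H). Of the forebrain medium, XAV939, LDN193189 and FGF2 are recorded for day 3, and the makeup of the other media is not used here. Plating was at 37500 cells per cm2 for the day-2 groups, at 75000 for the aNE-derived day-4 groups and at 150000 for the pNE-derived ones, so effects of origin and density at day 4 cannot be told apart.

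NODAL is a secreted ligand of the TGF-beta family that signals through activin receptors, activates SMAD2 and SMAD3, and needs a co-receptor of the EGF-CFC family such as TDGF1 (CRIPTO). GDF3 is a related ligand that uses the same receptors, and FOXH1 is the DNA-binding partner that brings activated SMADs to target genes. LEFTY1, LEFTY2 and CER1 (Cerberus) are secreted inhibitors, and targets of the pathway itself are among them. In human pluripotent stem cells NODAL and activin signalling sustains the undifferentiated state, and blocking it together with BMP signalling is a standard way to obtain neural ectoderm.

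Promoter sequences were examined for CER1, NODAL and GDF3, the 3 members with an entry in the RefSeq promoter table. On leaving the pluripotent state NODAL and GDF3 were both lower, and CER1 was higher in aNE. Each sequence is the 250 bases before the RefSeq start site on GRCh38.p14, read 5′ to 3′ on the minus strand, which carries each of these 3 genes. They are chr9:14722734-14722983 for CER1, chr10:70441682-70441931 for NODAL and chr12:7695776-7696025 for GDF3. Capitals mark AATNNACA, a core bound by FOXH1, and CAGAC, a core bound by SMAD proteins, searched on both strands; no matches overlapped.
CER1: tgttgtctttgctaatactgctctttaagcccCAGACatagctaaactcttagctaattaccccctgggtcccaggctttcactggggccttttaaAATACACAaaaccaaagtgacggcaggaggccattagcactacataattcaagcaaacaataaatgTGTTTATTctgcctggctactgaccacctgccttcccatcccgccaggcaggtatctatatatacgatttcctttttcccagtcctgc
NODAL: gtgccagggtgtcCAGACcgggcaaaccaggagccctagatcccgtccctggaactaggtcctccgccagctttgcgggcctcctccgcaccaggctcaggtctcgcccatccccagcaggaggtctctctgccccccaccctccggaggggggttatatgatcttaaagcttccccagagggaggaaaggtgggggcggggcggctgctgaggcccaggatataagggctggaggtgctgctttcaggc
GDF3: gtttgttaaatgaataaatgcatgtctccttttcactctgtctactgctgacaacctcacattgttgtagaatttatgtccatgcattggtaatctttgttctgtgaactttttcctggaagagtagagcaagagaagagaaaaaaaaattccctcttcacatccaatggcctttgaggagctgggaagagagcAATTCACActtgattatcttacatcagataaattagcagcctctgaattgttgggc
In CER1 the FOXH1 core began 154 bases before the start on the sense strand and 88 bases before it on the other strand, and the SMAD core 218 bases before it. In GDF3 there was 1 FOXH1 core, 56 bases before the start, and no SMAD core. In NODAL there was 1 SMAD core, 237 bases before the start, and no FOXH1 core. The FOXH1 core was in 9.88% and the SMAD core in 38.0% of all 35116 promoter windows of this length. Neither the octamer ATGCAAAT (in 1.63% of windows) nor the bicoid-type homeobox core TAATCC (in 5.62%) was in any of the 3. These matches describe letters in the window, not bound sites. Base composition differed too, with 45.2% GC for CER1, 65.2% for NODAL and 38.4% for GDF3. LEFTY1, LEFTY2, TDGF1 and FOXH1 are named only.

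In the GENCODE annotation of GRCh38, NODAL lies on chromosome 10 (70432315 to 70447951, minus strand, 3 exons) and its RefSeq start is inside that longer gene model. GDF3 lies on chromosome 12 (7689782 to 7695776, minus strand, 2 exons) and CER1 on chromosome 9 (14719724 to 14722717, minus strand, 2 exons). TDGF1 lies on chromosome 3 (46574534 to 46582463, plus strand, 6 exons). LEFTY1 (225886282 to 225911382, 4 exons) and LEFTY2 (225936598 to 225941489, 4 exons) neighbour each other on the minus strand of chromosome 1. All are protein coding. Sequence shared between genes limits some values. For genes on opposite strands this also depends on the strand setting of the quantification, which was not given in the sources used here. LEFTY1 had 33.0% of its transcript 31-base words in common with LEFTY2, and 45.9% with AL117348.2, a same-strand model that spans it, so the division between the LEFTY genes is uncertain. TDGF1 had 47.9% in common with the pseudogene TDGF1P3, which was at most 0.443 TPM in any library. NODAL had 40.4% in common with AC022532.1, a gene model on the opposite strand. GDF3 and CER1 shared no 31-base word with another gene.

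The values are TPM, a transcript abundance that sums to the same total in every library; they are scaled by transcript length and can be compared between genes, but they keep no record of depth. Between 13686 and 14679 genes reached 1 TPM in a library, and mitochondrial genes took 0.960% to 3.74% of the total. The labels were set against marker lists. The summed TPM of 8 pluripotency markers was 5874 in both hPSC libraries and 1085 to 2434 in the other 16, and LIN28A made up much of the latter. The summed TPM of 7 neural markers was 700.1 and 713.7 in aNE but 280.3 and 328.9 in pNE, against 221.3 and 217.5 in hPSC, which also express SOX2 and OTX2. It was below both hPSC libraries in aNE_H (171.4 and 137.5), pNE_H (112.9 and 98.5) and pNE_M (135.4 and 111.2), and near them in aNE_M (213.4 and 236.8), and HES5 was listed at 0 in aNE_H, pNE and pNE_H. In hPSC, SOX2 was between 188 and 194 TPM and OTX2 between 26.1 and 28.5 TPM, nearly all of the hPSC sum. OTX2 was at most 5.38 TPM in the pNE-derived day-4 libraries, so the sums follow these genes more than the list. Differences were fitted with limma on log2(TPM + 1) over 17033 genes with at least 1 TPM in 2 or more libraries. A gene was called at an adjusted p under 0.05 and a log2 fold change of at least 1 in size, and the log2 scale with its pseudocount understates changes of low genes. Of the 7 neural markers, 5 were called higher in aNE than in hPSC (7.36% of all genes) and 4 in pNE (7.14%), and 0 were called lower in either. All 7 members passed the filter, but GDF3, LEFTY1 and LEFTY2 did so through the hPSC libraries alone and therefore had to differ from them. NODAL reached 1 TPM in only 1 library outside hPSC, so it too passed only with the hPSC libraries counted.

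Of the 7 genes, 6 were highest in hPSC, among them TDGF1 and FOXH1, and CER1 moved the other way in aNE. Among the members, TDGF1 was the most abundant in hPSC and FOXH1 the next, whereas both ligands, LEFTY1, LEFTY2 and CER1 were between 0.158 and 11.7 TPM. In aNE against hPSC, 6 of 7 members were called lower, where 6.19% of all tested genes were, and 1 was called higher, where 7.36% were (13.5% in either direction). In pNE against the same hPSC libraries, 6 members were called lower, where 5.74% of all genes were, and none higher, where 7.14% were (12.9% in either direction). The 3 members that had to differ are among these 6, and so is NODAL, which passed the filter only with hPSC counted. The counts are therefore a description. The comparisons share the hPSC libraries and are not independent of each other.

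**Figure D1:**
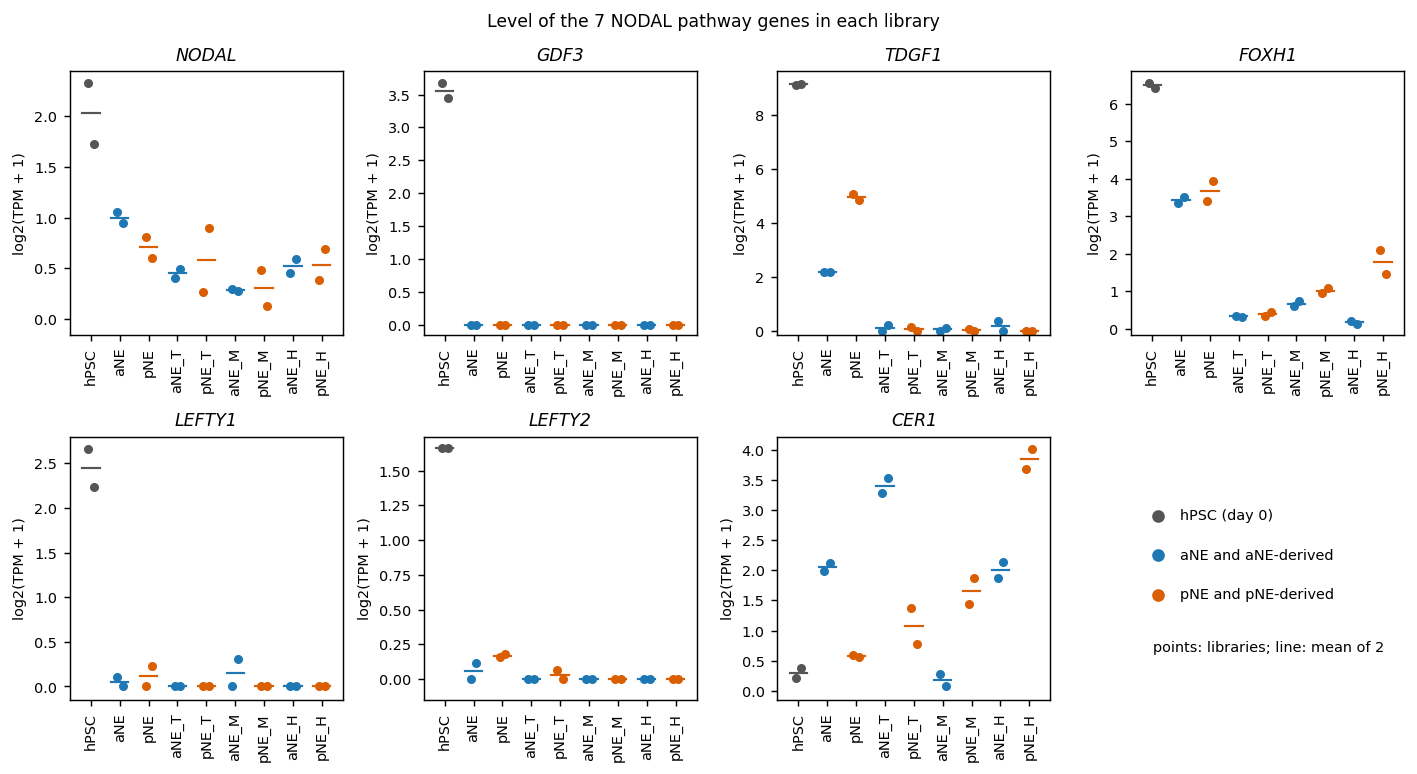
TPM of each of the 7 genes (vertical axes, log2(TPM + 1)) in the 18 libraries by group, with 1 point for each library. TDGF1 and FOXH1 were above 80 TPM in hPSC only, GDF3 was above 0 in hPSC only, and CER1 was highest in pNE_H and aNE_T.

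The ligands lay low even in hPSC. NODAL was at 4.02 and 2.31 TPM in hPSC, 1.07 and 0.922 TPM in aNE, and 0.750 and 0.521 TPM in pNE. Neither day-2 group overlapped hPSC, although the hPSC libraries differed by more TPM than those of any other group. NODAL fell by 1.03 ± 0.26 (SE, log2 scale, limma adjusted p = 0.00582) in aNE and by 1.32 ± 0.26 (SE, adjusted p = 0.00121) in pNE. Because NODAL passed the filter only with the hPSC libraries counted, these falls are read as descriptions. The fall in aNE was not called without hPSC replicate 1 (log2 change -0.73, limma adjusted p = 0.0734), without aNE replicate 2 (-0.98, adjusted p = 0.0367) or with a pseudocount of 0.1 (adjusted p = 0.063). Fitted to the compared libraries only, neither fall was called (limma adjusted p = 0.0579 and 0.052). GDF3 was at 11.7 and 9.90 TPM in hPSC and listed at 0 in all 16 other libraries. No ratio is given against a value listed at 0, and the log2(TPM + 1) difference of -3.56 in each day-2 group is a description, since GDF3 was tested only through its level in hPSC. In these bulk libraries fewer expressing cells and less RNA per cell cannot be told apart.

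The co-receptor TDGF1 showed the widest range. It was at 558 and 575 TPM in hPSC, 3.47 and 3.52 TPM in aNE, and 32.9 and 27.8 TPM in pNE. The 3 groups did not overlap, and the mean in hPSC was 162-fold that of aNE and 18.7-fold that of pNE. TDGF1 fell by 6.98 ± 0.16 (SE, limma adjusted p = 5.33e-12) in aNE and by 4.18 ± 0.16 (SE, adjusted p = 5.22e-10) in pNE. FOXH1, the transcription partner, was at 92.0 and 85.1 TPM in hPSC, 9.28 and 10.3 TPM in aNE, and 9.70 and 14.4 TPM in pNE. Its mean was 11.1% of the hPSC level in aNE and 13.6% in pNE, and the day-2 groups overlapped each other. FOXH1 fell by 3.05 ± 0.21 (SE, limma adjusted p = 1.71e-07) in aNE and by 2.80 ± 0.21 (SE, adjusted p = 3.94e-07) in pNE.

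The 3 inhibitors did not move as a group. LEFTY1 was at 5.34 and 3.72 TPM in hPSC, and at most 0.171 TPM in the 4 day-2 libraries, 2 of which listed it at 0. LEFTY2 was at 2.16 TPM in each hPSC library and at most 0.133 TPM at day 2. Sequence shared between them can be divided either way, so their sum is also given. It was 7.50 and 5.88 TPM in hPSC, 0.0739 and 0.0843 TPM in aNE, and 0.114 and 0.304 TPM in pNE. The sum leaves out AL117348.2, which shares 45.9% of the 31-base words of LEFTY1 and 23.2% of those of LEFTY2. The log2(TPM + 1) difference from hPSC was -2.40 in aNE and -2.34 in pNE for LEFTY1, and -1.60 and -1.49 for LEFTY2. As for GDF3, these are descriptions, because the filter kept both genes through hPSC alone. CER1 was at 0.158 and 0.304 TPM in hPSC, 2.97 and 3.36 TPM in aNE, and 0.516 and 0.481 TPM in pNE. All 4 day-2 libraries were above both hPSC libraries. CER1 rose by 1.76 ± 0.23 (SE, limma adjusted p = 4.66e-05) in aNE, where its mean was 13.7-fold that of hPSC. In pNE the log2 difference of 0.29 ± 0.23 was not called (limma adjusted p = 0.354).

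At day 2 the origins differed in the co-receptor and in one inhibitor, in opposite directions. In pNE against aNE, 2 of 7 members were called, where 3.85% of all genes were. TDGF1 was 8.68-fold higher in pNE by the means (log2 difference 2.80 ± 0.16 SE, limma adjusted p = 9.06e-08). CER1 was 6.36-fold higher in aNE (log2 difference -1.48 ± 0.23 SE for pNE minus aNE, limma adjusted p = 0.000665). NODAL was lower in both pNE libraries than in both aNE libraries, but the log2 difference of -0.29 ± 0.26 was not called (limma adjusted p = 0.538). FOXH1 overlapped between the origins (log2 difference 0.25 ± 0.21, limma adjusted p = 0.521).

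**Figure D2:**
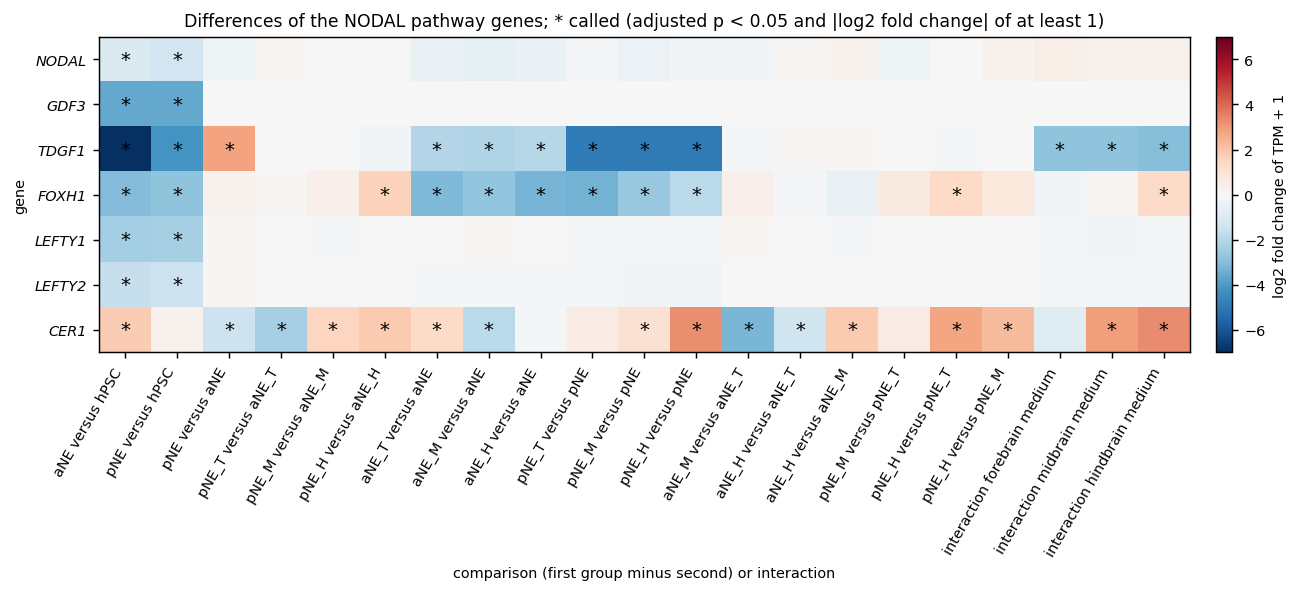
Log2 fold change of TPM + 1 of the 7 genes (rows) in the 18 comparisons of 2 groups and the 3 interactions (columns), coloured from lower (blue) to higher (red), with a star on called ones. CER1 is called in both directions between media and origins, and TDGF1 and FOXH1 are called lower in all 6 comparisons of day 4 with day 2.

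From day 2 to day 4, TDGF1 and FOXH1 fell in every medium from either origin. Of the 7 members, 3 were called in aNE_T against aNE, where 9.03% of genes were, 3 in aNE_M (12.0%) and 2 in aNE_H (10.1%). Against pNE, 2 were called in pNE_T (10.2%), 3 in pNE_M (12.7%) and 3 in pNE_H (12.3%). The comparisons of each origin share its day-2 libraries. TDGF1 was at most 0.270 TPM in the 12 day-4 libraries and was listed at 0 in 7 of them. It fell by 2.00 to 2.13 on the log2 scale in the aNE-derived groups and by 4.90 to 4.97 in the pNE-derived groups (largest limma adjusted p = 8.09e-07). As all day-4 groups overlapped near 0, these unequal falls carry the same difference as the day-2 levels. NODAL was between 0.0955 and 0.867 TPM at day 4, with a median of 0.346 TPM, and was called in none of the 6 comparisons. The lowest adjusted p was in aNE_M against aNE, at 0.228 and 0.212 TPM against 1.07 and 0.922 TPM (log2 difference -0.71, limma adjusted p = 0.0459), short of the fold required. With a pseudocount of 0.1 that difference was called (log2 difference -1.78, limma adjusted p = 0.0382). In the order of its means, hPSC and aNE stood apart from the groups next to them, and each of the 7 groups from pNE down to aNE_M overlapped its neighbours. GDF3 stayed listed at 0, and LEFTY1 and LEFTY2 were each above 0 in 1 day-4 library, at 0.241 TPM in aNE_M and at 0.0438 TPM in pNE_T.

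FOXH1 did not fall equally far in all day-4 groups. This gene lies on chromosome 8 (144473412 to 144476335, minus strand, 3 exons). It was at 0.265 and 0.257 TPM in aNE_T, 0.531 and 0.663 TPM in aNE_M, and 0.157 and 0.105 TPM in aNE_H. From pNE it was at 0.277 and 0.355 TPM in pNE_T, 0.941 and 1.12 TPM in pNE_M, and 3.27 and 1.74 TPM in pNE_H. Both pNE_H libraries were above the other 10 of day 4. Neighbouring day-4 groups in the order of means, pNE_H, pNE_M, aNE_M, pNE_T, aNE_T and aNE_H, did not overlap, but how many genes share this was not counted. No tested step between neighbours was called. The limma adjusted p was 0.0229 for pNE_H against pNE_M (log2 difference 0.76) and 0.329 for pNE_M against aNE_M. It was 0.897 for pNE_T against aNE_T and 0.644 for aNE_H against aNE_T. FOXH1 fell from day 2 by 3.10 in aNE_T, 2.76 in aNE_M and 3.26 in aNE_H, and by 3.28 in pNE_T, 2.66 in pNE_M and 1.91 in pNE_H (largest limma adjusted p = 1.22e-05). In hindbrain medium it was 19.2-fold higher in pNE_H than in aNE_H by the means (log2 difference 1.60 ± 0.21 SE, limma adjusted p = 0.000107). Among pNE-derived groups it was 7.92-fold higher in pNE_H than in pNE_T (1.38 ± 0.21 SE, limma adjusted p = 0.000494). Fitted to the compared libraries only, these calls were lost (limma adjusted p = 0.0727 and 0.102). Of FOXH1's 31-base words, 30.4% are shared with KIFC2, a kinesin gene that overlaps it on the opposite strand. KIFC2 was at 1.72 and 0.870 TPM in pNE_H, 2.47 and 3.41 TPM in aNE_H, and 2.08 and 1.77 TPM in pNE_T. Its part in the FOXH1 values was not tested.

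CER1 levels differed by medium and by origin, and origin cannot be told apart from plating density at day 4. In the order of mean TPM it was 13.5 in pNE_H, 9.64 in aNE_T, 3.17 in aNE, 3.01 in aNE_H, 2.19 in pNE_M, 1.15 in pNE_T, 0.498 in pNE, 0.231 in hPSC and 0.135 in aNE_M. Neighbours overlapped at 3 places, aNE with aNE_H, aNE_H with pNE_M, and hPSC with aNE_M. By library, aNE_T was at 8.69 and 10.6 TPM, aNE_M at 0.212 and 0.0583 TPM, and aNE_H at 2.64 and 3.38 TPM. Among the pNE-derived groups, pNE_T was at 1.59 and 0.717 TPM, pNE_M at 1.70 and 2.68 TPM, and pNE_H at 11.8 and 15.2 TPM. Forebrain medium thus held the highest level among aNE-derived groups, and hindbrain medium the highest among pNE-derived groups.

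Set against day 2, CER1 rose by 1.35 ± 0.23 (SE, limma adjusted p = 0.000563) in aNE_T and fell by 1.88 ± 0.23 (SE, adjusted p = 2.81e-05) in aNE_M. In aNE_H the log2 difference of -0.06 ± 0.23 was not called (limma adjusted p = 0.881). From pNE, CER1 rose by 3.27 ± 0.23 (SE, limma adjusted p = 1.69e-07) in pNE_H, where its mean was 27.1-fold that of pNE. It rose by 1.07 ± 0.23 (SE, limma adjusted p = 0.00237) in pNE_M, a call lost without pNE_M replicate 2 (log2 change 0.85, adjusted p = 0.0337). In pNE_T the difference of 0.49 ± 0.23 was not called (limma adjusted p = 0.118).

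Comparing origins within each day-4 medium, CER1 was the member called in all 3, with a direction that differed between media. In forebrain medium it was the 1 member called (7.77% of genes), 8.36-fold higher in aNE_T than in pNE_T (log2 difference -2.33 ± 0.23 SE for pNE_T minus aNE_T, limma adjusted p = 6.11e-06). In midbrain medium it was again the 1 member called (5.74% of genes), 16.2-fold higher in pNE_M than in aNE_M (log2 difference 1.48 ± 0.23 SE, limma adjusted p = 0.000465). That call was lost when only these 4 libraries were fitted (limma adjusted p = 0.0578). In hindbrain medium CER1 and FOXH1 were called (6.83% of genes), and CER1 was 4.49-fold higher in pNE_H than in aNE_H (log2 difference 1.85 ± 0.23 SE, limma adjusted p = 5.72e-05).

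Between media of the same origin, which share libraries pairwise, most calls were again CER1. It was the 1 member called in aNE_M against aNE_T (10.1% of genes; log2 difference -3.23 ± 0.23 SE, limma adjusted p = 1.91e-07). It was also the 1 member called in aNE_H against aNE_T (6.60%; -1.41, limma adjusted p = 0.000498) and in aNE_H against aNE_M (4.92%; 1.82, adjusted p = 9.28e-05). In pNE_H against pNE_T, CER1 (2.77 ± 0.23 SE, limma adjusted p = 2.69e-06) and FOXH1 were called (5.03% of genes). In pNE_H against pNE_M, CER1 was called (5.99% of genes; 2.19 ± 0.23 SE, limma adjusted p = 1.63e-05). No member was called in pNE_M against pNE_T, where 8.60% of genes were, although 2 members had an unadjusted limma p under 0.05. By adjusted p alone FOXH1 passed there (28.5% of genes; 0.62, limma adjusted p = 0.0423) and also in pNE_H against pNE_M (19.7% of genes; 0.76, adjusted p = 0.0229).

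The difference in response between origins was tested as an interaction, taken as the pNE-derived group minus pNE, less the aNE-derived group of that medium minus aNE. Plating density at day 4 differed between the origins as well, so it is part of this difference. For CER1 it was 3.33 ± 0.32 (SE, limma adjusted p = 1.14e-05) in hindbrain medium and 2.95 ± 0.32 (SE, adjusted p = 3.39e-05) in midbrain medium. In forebrain medium it was -0.85 ± 0.32 and was not called (limma adjusted p = 0.118), but it was called without pNE_T replicate 1 (-1.15, adjusted p = 0.0401). The day-2 difference of CER1 (-1.48 for pNE minus aNE) is part of its interaction values. Its day-4 differences between origins were -2.33, 1.48 and 1.85 in forebrain, midbrain and hindbrain medium. TDGF1 was called in all 3 media, as follows from its day-2 difference, and FOXH1 in hindbrain medium. The members called were therefore 1 of 7 in forebrain, 2 in midbrain and 3 in hindbrain medium, where 7.14%, 7.02% and 7.83% of genes were.

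CER1 is also a gene of anterior endoderm, so 9 mesendoderm and endoderm markers were read in the same libraries. In pNE_H their summed TPM was 16.2 and 12.9, with SOX17 at 1.41 and 0.928 TPM, FOXA2 at 4.996 and 4.29 TPM and GATA4 at 6.59 and 5.63 TPM. HHEX, GSC and TBXT were listed at 0 there, and pNE_H was the only group in which SOX17 exceeded 0.1 TPM. In aNE_T, with the next highest CER1, the summed TPM was 6.12 and 6.04, SOX17 was listed at 0, FOXA2 was at most 0.0203 TPM, and GSC, at 5.34 and 5.37 TPM, made up most of the sum. The highest sum, 97.8 and 117 TPM, was in aNE_M, the group with the lowest CER1, and came mainly from MIXL1 at 78.0 and 94.9 TPM and EOMES at 16.2 and 16.9 TPM. In pNE_M, where CER1 was at 1.70 and 2.68 TPM, the sum of 16.2 in both libraries was as high as in pNE_H. Different genes made it up, with MIXL1 at up to 12.2 TPM and SOX17 listed at 0 in pNE_M. In pNE_T, where CER1 was at 1.59 and 0.717 TPM, the sum was 10.3 and 12.9 TPM. FOXA2 (4.36 and 6.01 TPM) was about as high in pNE_T as in pNE_H, and GATA6 was higher in pNE_T (4.22 and 4.47 TPM) than in pNE_H (2.96 and 1.98 TPM). In aNE the sum was 32.7 and 30.7 TPM, nearly all GSC, and in hPSC it was 1.89 and 2.45 TPM. The part of endoderm-type cells in the CER1 values was not tested.

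**Figure D3:**
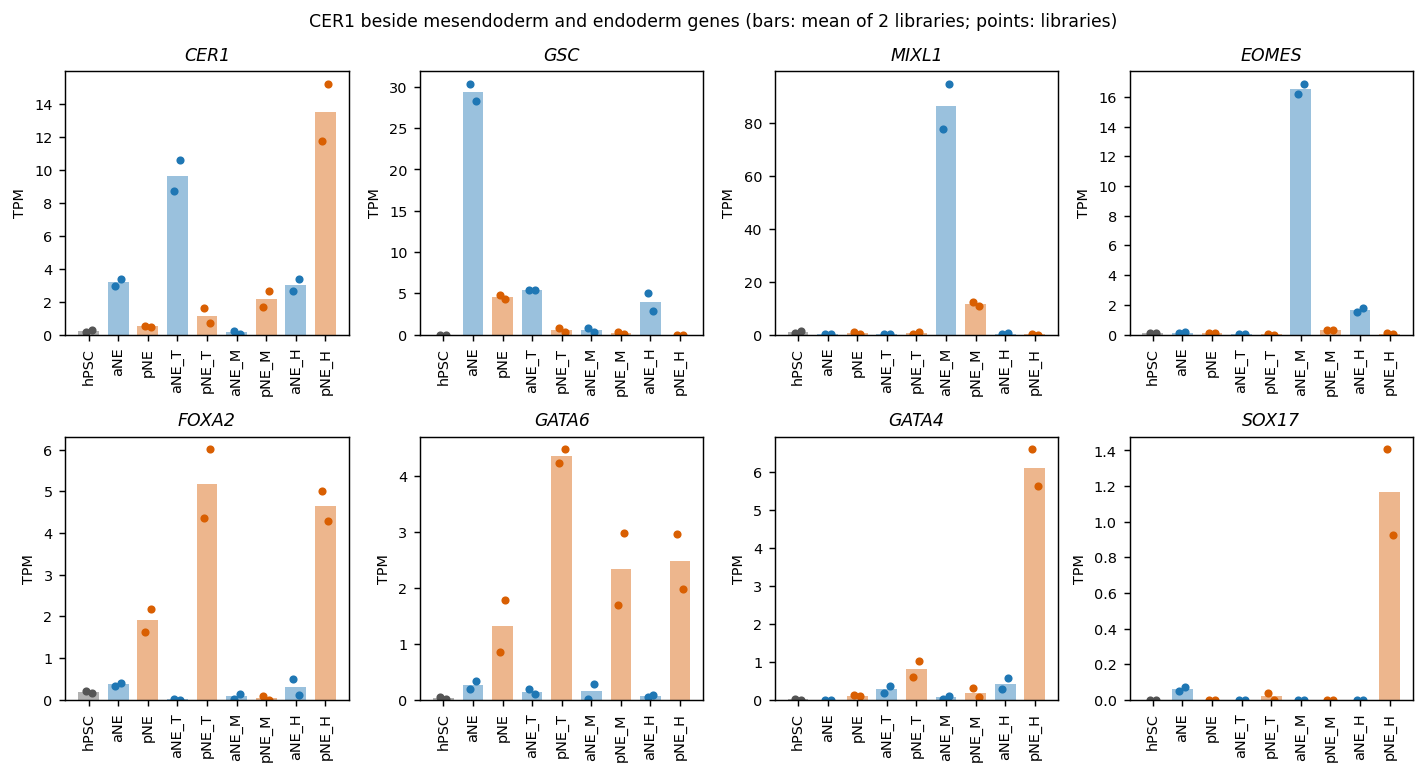
TPM of CER1 and of 7 mesendoderm and endoderm genes in the 9 groups, with bars from 0 for the mean of 2 libraries and points for the libraries. CER1 was highest in pNE_H together with GATA4 and SOX17, but in aNE_T it was high with SOX17 listed at 0, and MIXL1 and EOMES were highest in aNE_M, where CER1 was lowest.

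The other genes of the pathway were read from a list of 37, of which 30 passed the filter on low values. In aNE against hPSC, 3 were called higher and 4 lower, where 7.36% and 6.19% of all tested genes were. In pNE against hPSC, 5 were called higher and 4 lower, where 7.14% and 5.74% were. Their median log2 fold change was 0.21 in aNE and 0.03 in pNE, beside 0.07 and 0.05 over all tested genes. The same 4 restraining genes made up the lower calls in both: SMAD7, an inhibitory SMAD, PMEPA1, which sequesters SMADs, SKIL, a SMAD corepressor, and BAMBI, a pseudoreceptor. SMAD7 was at 18.6 and 16.6 TPM in hPSC and between 1.25 and 2.91 TPM in the 4 day-2 libraries. It fell by 2.72 in aNE and by 2.50 in pNE (limma adjusted p = 1.21e-06 and 2.69e-06). PMEPA1 fell by 3.24 and 3.80 (limma adjusted p = 6.7e-05 and 1.86e-05) from 16.3 and 16.7 TPM. SKIL fell by 3.38 and 2.64 (limma adjusted p = 1.57e-08 and 1.59e-07) from 75.1 and 87.0 TPM.

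The receptors and SMAD transducers did not follow the members. Of the 4 type I and type II receptors listed, ACVR1B, ACVR2A and ACVR2B lay between 8.55 and 38.3 TPM over all 18 libraries. The other, ACVR1C, stayed below 1 TPM in every library, so it failed the filter and was not tested. The 1 call among the 3 tested receptors in the 18 comparisons was ACVR2A in aNE_M against aNE (log2 change -1.20, limma adjusted p = 0.0132). SMAD2 was between 48.0 and 73.5 TPM and SMAD4 between 42.4 and 68.8 TPM. SMAD3 rose by 1.08 in aNE and by 1.69 in pNE (limma adjusted p = 0.000256 and 6.2e-06) from 5.55 and 6.36 TPM, and reached 57.8 and 49.3 TPM in aNE_T. Of the relatives of TDGF1 and GDF3, CFC1 and CFC1B were at most 0.608 TPM and GDF1 was between 5.84 and 18.2 TPM. The activin genes INHBA and INHBB were at most 0.778 TPM. Other listed ligands that act through SMAD2 and SMAD3 were higher. GDF11 was between 15.6 and 16.9 TPM in hPSC and between 19.2 and 42.35 TPM in the other libraries. TGFB1 was between 9.05 and 12.0 TPM in hPSC and between 4.77 and 15.8 TPM in the others. TGFB2 was at most 5.56 TPM and TGFB3 at most 3.95 TPM.

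FST (follistatin), which binds activin, rose by 3.28 in aNE and by 1.35 in pNE (limma adjusted p = 1.88e-09 and 7.59e-06). It was at 9.38 and 9.89 TPM in hPSC, 99.6 and 104.8 TPM in aNE, and 27.5 and 24.9 TPM in pNE. GSC, a homeobox gene known as a NODAL target, was listed at 0 in hPSC and stood at 30.4 and 28.4 TPM in aNE and 4.84 and 4.33 TPM in pNE (limma adjusted p = 4.58e-09 and 3.04e-06). GSC had its highest values in aNE, where TDGF1 and FOXH1 were called lower than in hPSC and NODAL's fall is read as a description. How GSC relates to these members was not tested. In pNE against aNE, FST and GSC were called lower and FOXA2 higher. BAMBI differed most between the origins at day 4, at 68.7 and 73.7 TPM in pNE_T and 0.972 and 0.922 TPM in aNE_T (log2 difference 5.21 ± 0.13 SE, limma adjusted p = 2.73e-11). In midbrain medium MIXL1 rose by 6.07 in aNE_M and by 3.05 in pNE_M (limma adjusted p = 1.21e-09 and 9.26e-07).

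**Figure D4:**
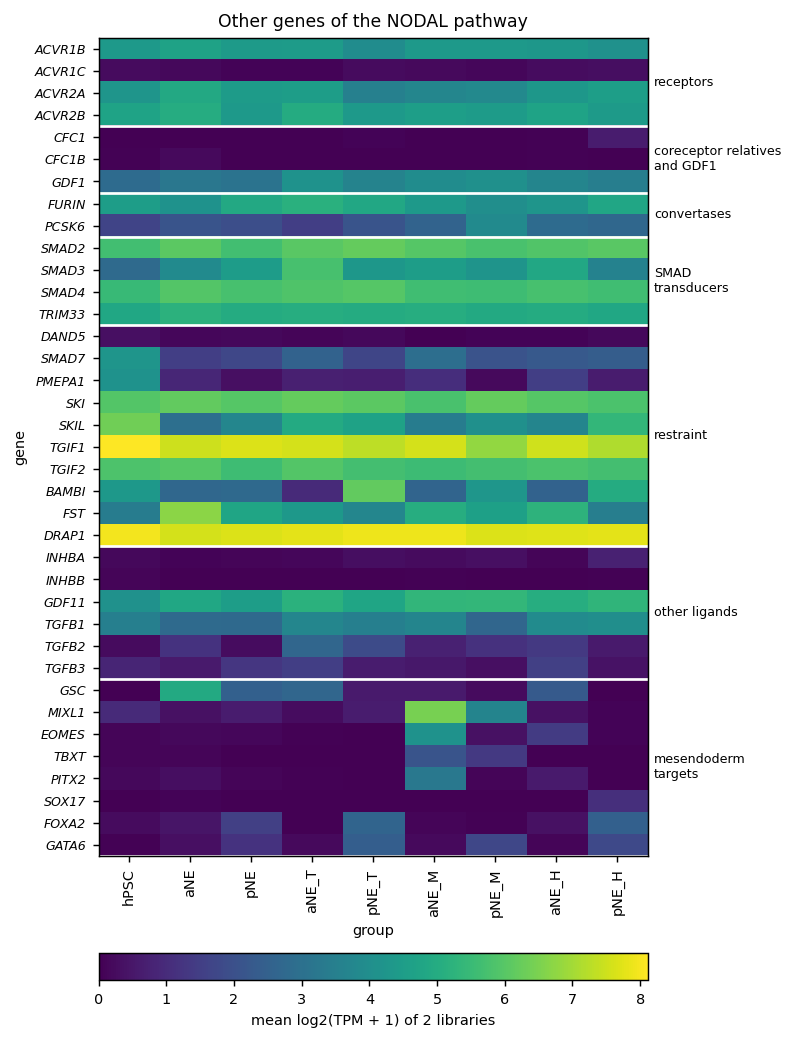
Mean log2(TPM + 1) of the 37 other listed pathway genes (rows) in the 9 groups (columns), with brighter colour for higher levels. ACVR1B, ACVR2B, SMAD2 and SMAD4 keep similar colours across groups, SMAD7, PMEPA1 and SKIL are highest in hPSC, and MIXL1 and EOMES are highest in aNE_M.

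The genes whose pattern was most like each member were named by Pearson's r of log2(TPM + 1) over the 18 libraries, which share groups and a large step between hPSC and the rest. For TDGF1 they were VASH2 (r = 0.989), ZNF488 and CCL26, and for FOXH1 they were BSPRY (r = 0.976), POU5F1 and FAM83F. POU5F1, the pluripotency factor, was at 2900 and 2878 TPM in hPSC and between 162 and 171 TPM in the day-2 libraries, so both it and FOXH1 held an intermediate level at day 2. For NODAL they were UTF1 (r = 0.946), PHC1P1 and C1orf210. GDF3, LEFTY1 and LEFTY2 were most like RPL36AP53 (r = 0.999), HLA-DPA3 (r = 0.994) and SEPHS1 (r = 0.995), each with its high values in hPSC. For CER1 the likeness was lower, with FN1 (r = 0.831), RPL4 and BMERB1. FN1, which encodes fibronectin, was at 273 and 234 TPM in pNE_H and 164 and 171 TPM in aNE_T, the same 2 groups that led for CER1, but stood at 32.5 and 32.1 TPM in hPSC and 31.9 and 27.8 TPM in aNE.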

How the data were processed

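Poly-A RNA of 18 libraries of the H1 line was analysed from 1 table of TPM values that the authors deposited, with 1 row per gene. Per the submitters' processing notes the tools included bcl2fastq, FastQC, Trim Galore and kallisto and the build was hg38, with no versions; the annotation is not given in the sources used here. TPM keeps no depth, so no counting interval is given, and zeros are given as listed: among 3157 genes whose median reached 50 TPM, 2 had a 0 in any library.

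From these values, log2(TPM + 1) was fitted with limma 3.58.1 in R 4.3.3, with 1 mean per group over all libraries (9 residual degrees of freedom), a variance trend and two-sided p-values adjusted by the Benjamini-Hochberg method over the 17033 genes that reached 1 TPM in 2 or more libraries. It gave 18 comparisons and 3 interactions; called means that the adjusted p was below 0.05 and the log2 fold change 1 or more in size. Alternatives tried included a 0.1 pseudocount, no filter, a filter at 5 TPM, median-ratio scaling, the compared libraries only, a replicate block, adjusted p alone and leaving out each library. Members and lists were chosen with earlier results of these data known. Named genes are the members, the listed pathway genes and the 3 genes most like each member. KIFC2, AC022532.1 and AL117348.2 were added for shared sequence after their values could be seen. Promoters are from RefSeq (GRCh38.p14), and 31-base words and coordinates from GENCODE (GRCh38).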

Additional observations from a re-analysis of the deposited data

Results flagged for a closer look

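The change from day 2 to day 4 differed between the origins by a tested interaction (pNE-derived minus aNE-derived, log2 scale, limma) for 3 members. Origin cannot be told apart from plating density at day 4. TDGF1 gave -2.83 ± 0.22 (SE, adjusted p = 1.79e-06) in forebrain medium, -2.81 ± 0.22 (adjusted p = 2.09e-06) in midbrain medium and -2.97 ± 0.22 (adjusted p = 1.3e-06) in hindbrain medium, with every day-4 library at or under 0.270 TPM. These TDGF1 values follow from its day-2 difference (log2 difference 2.80 for pNE minus aNE) and are not separate results. CER1 gave 2.95 ± 0.32 (limma adjusted p = 3.39e-05) in midbrain medium and 3.33 ± 0.32 (adjusted p = 1.14e-05) in hindbrain medium. The CER1 values also contain its day-2 difference (-1.48 for pNE minus aNE). Its day-4 differences between origins were 1.48 in midbrain and 1.85 in hindbrain medium. FOXH1 gave 1.35 ± 0.30 (limma adjusted p = 0.00738) in hindbrain medium, which was not called when only the compared libraries were fitted (adjusted p = 0.081).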

How the results depend on the processing

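The values of single members were followed in every comparison, whether called or not. Of these, 808 of 819 under other settings and 667 of 672 with a library left out stayed on the same side of the threshold. None changed direction once called, and direction was not followed for values called in neither fit. Some values could hardly change, such as those of GDF3 between groups that listed it at 0, so these shares are no measure of robustness. With a pseudocount of 0.1, the number of members called was 2 in aNE_H against aNE_M, 1 in pNE_M against pNE_T and 2 in pNE_H against pNE_M, through FOXH1, in place of 1, 0 and 1, and 4 in aNE_M against aNE, through NODAL, in place of 3. With a filter at 5 TPM, 4 members were called in aNE and 3 in pNE against hPSC, since NODAL, LEFTY1 and LEFTY2 were then not tested. By adjusted p alone, 1 was called in pNE_M against pNE_T and 2 in pNE_H against pNE_M. With only the compared libraries, 0 were called in pNE_M against aNE_M, 1 in pNE_H against aNE_H and 1 in pNE_H against pNE_T, and NODAL's falls at day 2 missed the threshold. Leaving out 1 library gave 1 to 2 members for the forebrain interaction (2 without pNE_T replicate 1) and 1 to 2 in pNE_H against pNE_M (2 without pNE_H replicate 2). Where an arm keeps 1 library, it is assumed to vary like the other groups.

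Replicate numbers did not pair the libraries: over 36 pairs of groups the correlation of deviations was -0.09 to 0.076. With a replicate block the count of members called stayed within 1.5 times in every comparison, for example 7 in aNE against hPSC. With 2 libraries a group and unknown depth, values under 1 TPM, as for NODAL after hPSC, have no stated precision, and small differences there were not detectable.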
